A study of Mus musculus with 17 samples.

Results

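The brain proteoglycan matrix genes are the chondroitin sulfate proteoglycans of brain extracellular matrix together with the tenascins, link protein and protease that bind, join or cut them. They were chosen by symbol as 10 genes (Ncan, Bcan, Vcan, Acan, Cspg5, Ptprz1, Tnc, Tnr, Hapln1 and Adamts4), and each matched 1 of the 56691 gene rows of the count table. The 17 libraries were 3′ end RNA-seq libraries of cultured mouse astrocytes, immunopanned at postnatal day 2 from C57BL/6 brains freed of meninges, olfactory bulbs and cerebellum, by depletion of CD45+ and O4+ cells and capture on HepaCAM. All cells grew in serum-free medium with the growth factor HB-EGF. In the first experiment, SAG, an agonist of the Hedgehog receptor component Smoothened, was given at 500 ng/ml from 3 days in vitro for 3 days, with DMSO as the vehicle (3 libraries each). In the second experiment, FGF2 (4 libraries) or FGF10 (3 libraries), both fibroblast growth factors, was given at 50 ng/ml from 2 days in vitro for 7 days, with PBS as the vehicle (4 libraries). The labels do not say which animals each culture came from, so p-values measure the spread between libraries.

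Lecticans are large secreted proteoglycans that bind hyaluronan at one end and tenascins at the other, and link proteins lock them onto hyaluronan. The resulting meshwork fills the space between neurons and glia and condenses around some neurons as the perineuronal net. Astrocytes and oligodendrocyte precursors are its main glial sources, and ADAMTS proteases cut the lecticans as the matrix is remodelled.

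Library totals ran from 17481727 to 68342287 counts. Levels are given as CPM, the counts relative to library size as scaled by edgeR's TMM factors. Reads come from the 3′ end of a transcript, so CPM were not divided by gene length. The use of molecular identifiers is not given, so a transcript may have been counted more than once. Zero counts were frequent: of the genes with a mean of 5 to 10 CPM over all libraries, 7.6% to 33.8% had no count in a given library, which bears on Adamts4, Hapln1 and Tnc below. The summed CPM of 10 astrocyte markers ran from 3641 to 5838, and none of the 10 was at 0 in every library. Marker lists of other cells also had counts: 8 oligodendrocyte precursor markers summed to 1539 to 4367 CPM and 11 neuronal markers to 514 to 967 CPM, whereas 9 microglial markers summed to at most 19.4 CPM. A few genes carried these sums. With DMSO, Olig1 and Olig2 averaged 725 and 1153 CPM and Map2 738 CPM. Of the other neuronal markers, Tubb3, Gad2, Dcx, Rbfox3 and Gad1 averaged 58.8, 32.5, 20.1, 19.9 and 12.6 CPM. Snap25, Syt1 and Stmn2 averaged at most 4.25 CPM, and Nefl and Slc17a7 were at 0. In bulk samples, fewer cells of a type and less RNA per cell cannot be told apart. The Hedgehog target Ptch1 read 67.6 to 103 CPM with DMSO and 458 to 483 CPM with SAG, in the direction of the labels.

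Reference promoters of some members, picked by how much their levels varied between libraries, are shown first. RefSeq promoter windows (GRCm38.p6, 250 bases before to 50 after the start) matched 8 of the 10 members, all but Cspg5 and Adamts4. Capitals mark matches on either strand to the letters of a TATA box (TATAAA, in 13.6% of 32851 promoters) or a GC box (CCGCCC, in 35.7%). Matches were taken at any distance from the start, so a match need not be a working element. Bcan (chr3:88000307-88000606, minus strand) and Ptprz1 (chr6:22875252-22875551, plus strand) had the lowest within-group coefficients of variation of the members, 12.3% and 19.4%. That of Ptprz1 was near the median of 19.1% for genes of like level. Tnr (chr1:159523519-159523818, plus strand) and Tnc (chr4:64046966-64047265, minus strand) varied most among the members detected in nearly every library.
Bcan: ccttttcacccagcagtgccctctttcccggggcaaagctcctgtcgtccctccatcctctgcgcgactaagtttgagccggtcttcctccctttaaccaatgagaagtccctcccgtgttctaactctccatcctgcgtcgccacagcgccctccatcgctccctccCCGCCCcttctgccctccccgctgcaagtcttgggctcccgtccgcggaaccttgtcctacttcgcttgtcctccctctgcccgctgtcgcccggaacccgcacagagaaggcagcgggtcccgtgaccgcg
Ptprz1: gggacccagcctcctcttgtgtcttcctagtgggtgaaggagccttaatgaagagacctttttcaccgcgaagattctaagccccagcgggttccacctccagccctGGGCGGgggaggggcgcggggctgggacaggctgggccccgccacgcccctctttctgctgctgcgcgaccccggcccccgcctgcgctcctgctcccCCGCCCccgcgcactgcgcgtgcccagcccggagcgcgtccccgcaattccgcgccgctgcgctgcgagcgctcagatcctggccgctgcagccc
Tnr: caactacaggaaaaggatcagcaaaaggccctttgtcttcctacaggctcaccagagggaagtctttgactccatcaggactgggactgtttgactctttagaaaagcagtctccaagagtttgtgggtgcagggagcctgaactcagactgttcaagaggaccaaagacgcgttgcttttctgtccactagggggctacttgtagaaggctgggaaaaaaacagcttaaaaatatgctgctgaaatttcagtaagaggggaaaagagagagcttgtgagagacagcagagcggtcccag
Tnc: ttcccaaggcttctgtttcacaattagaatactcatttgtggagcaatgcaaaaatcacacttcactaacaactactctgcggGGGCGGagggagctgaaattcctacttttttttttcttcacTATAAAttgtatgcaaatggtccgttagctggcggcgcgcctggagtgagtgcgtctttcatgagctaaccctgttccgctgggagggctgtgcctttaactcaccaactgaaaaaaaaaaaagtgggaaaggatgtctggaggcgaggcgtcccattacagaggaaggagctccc

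The Bcan window held 24 CpG dinucleotides with 64.0% G and C, and that of Ptprz1 held 29 with 71.7%. The Tnr window held 3 CpG and none of the motifs searched. The Tnc window held 10 CpG (47.3% G and C) with a match to the TATA box letters, well before the usual place of a TATA box, and a match to the GC box. A second Tnc window in the table (chr4:64046887-64047186), which overlaps the first, held 16 CpG with 54.0% G and C and the same motifs. Over all promoters in the table the median was 7 CpG (quartiles 3 and 20) and 52.7% G and C. The windows not shown did not all follow the contrast of those shown. Acan, with 0 counts in all 17 libraries, held 31 CpG with 74.0% G and C. Ncan held 9 CpG (56.7%), Vcan 12 (61.0%) and Hapln1 3 (54.3%). A link between these windows and the levels was not tested. None of the 8 matched members held the AP-1 motif TGANTCA (7.81% of promoters) or the GLI motif GACCACCCA (0.253%) in these windows.

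Among the lecticans, brevican (Bcan; chromosome 3, 87987531 to 88002175) was the most abundant member, at 1334 ± 164 CPM (SD, n = 17) and rank 57 of all genes. Its highest library was 1.53 times its lowest. Its within-group coefficient of variation was 12.3%, against a median of 19.2% for the 109 genes within 2-fold of its mean level. Neurocan (Ncan; chromosome 8, 70093085 to 70120863) averaged 533 ± 165 CPM (SD, n = 17; rank 176). Versican (Vcan; chromosome 13, 89655309 to 89743027), whose level includes all splice forms sharing the counted 3′ end, was lower, at 24.8 ± 12.6 CPM (SD, n = 17). Aggrecan (Acan; chromosome 7, 79053226 to 79115099), the cartilage lectican also found in perineuronal nets, had 0 counts in all 17 libraries. A count of 0 in a library allows 0.0447 to 0.172 CPM, counting error only. The order Bcan, Ncan, Vcan held in every library, with no overlap between the ranges of the genes.

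Both membrane-anchored members were abundant. Ptprz1 (chromosome 6, 22875315 to 23052916), a receptor tyrosine phosphatase whose shed and secreted forms include phosphacan, averaged 950.0 ± 163 CPM (SD, n = 17; rank 86). Cspg5 (chromosome 9, 110243783 to 110262576), or neuroglycan C, a transmembrane proteoglycan with an EGF-like domain, averaged 372 ± 93.5 CPM (SD, n = 17; rank 281). Their within-group coefficients of variation were 19.4% and 20.1%, near the medians of 19.1% and 20.5% for genes of like level. Ptprz1 exceeded Cspg5 in every library, whereas the ranges of Cspg5 (218 to 546 CPM) and Ncan (362 to 884 CPM) overlapped.

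The tenascins, multimeric glycoproteins that crosslink lecticans, were uneven between libraries. Tenascin R (Tnr; chromosome 1, 159523729 to 159931729), the form typical of oligodendrocyte lineage cells and some neurons, averaged 48.8 CPM and spanned 3.42 to 129 CPM, a 37.6-fold range. Tenascin C (Tnc; chromosome 4, 63959785 to 64047015), a form of immature and reactive glia, averaged 22.7 CPM and spanned 0 to 110 CPM. Their within-group coefficients of variation were 68.7% and 120%, above those of 96.9% and 99.4% of the genes within 2-fold of their levels. Antisense or opposite-strand gene models overlap Tnr, Tnc and Vcan in the GRCm38 annotation (GENCODE M21), and the sources used here do not give the strand setting of the counting.

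The protease and the link protein were near the limit of detection. Adamts4 (chromosome 1, 171250129 to 171262267), an aggrecanase that also cuts brevican, was counted in 10 of 17 libraries and reached 17.6 CPM. Hapln1 (chromosome 13, 89540529 to 89611832), a link protein, was counted in 3 libraries, with 220 counts in PBS replicate 2, 226 in FGF2 replicate 1 and 52 in FGF10 replicate 2, and 0 in the others. Where Adamts4 was counted at all, it had at least 184 counts.

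**Figure D1:**
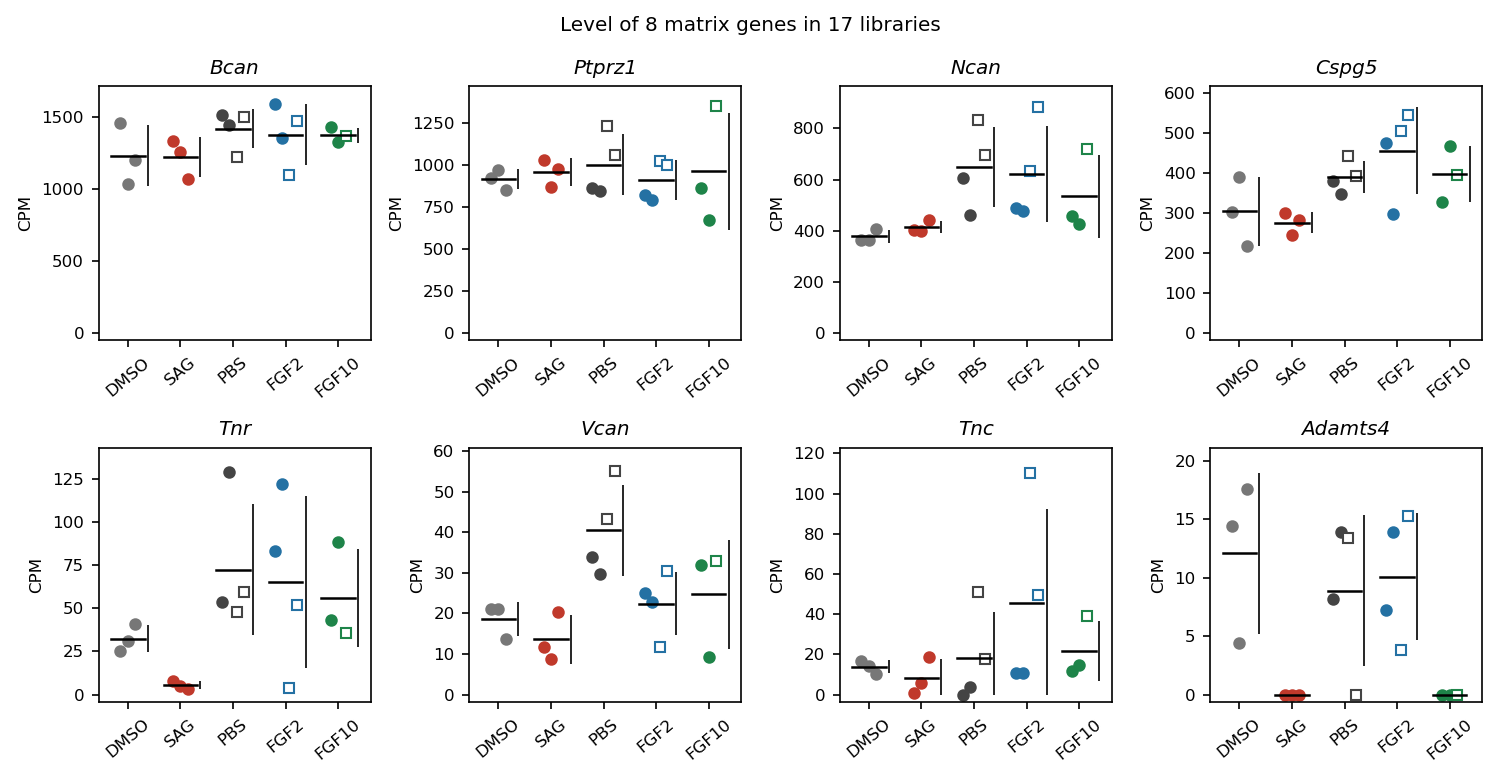
Level of 8 members (y axes, CPM) in each library of the 5 groups (x axes), with Acan and Hapln1 left out. Filled circles are libraries, open squares are replicates 3 and 4 of the FGF experiment, bars are group means and side lines are SD truncated at 0. Bcan spans 1038 to 1588 CPM over all libraries, while Tnr falls to 3.42 to 8.10 CPM in the 3 SAG libraries and Adamts4 is at 0 in every SAG and FGF10 library.

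The comparison of SAG with DMSO asked how Smoothened activation changed the astrocyte transcriptome. Tnr and Adamts4 were lower in every SAG library, the abundant proteoglycans differed little, and no member passed edgeR's quasi-likelihood test after Benjamini-Hochberg adjustment (0 of 8 tested), where 0.0638% of 12538 genes did (8 genes). DESeq2's Wald test, the kind of test the study used, called Tnr and Adamts4, where it called 3% of genes. At an unadjusted p under 0.05 by edgeR's test there were 2 of 8 members, the same pair, where 5.69% of genes were. Groups did not overlap for these 2 of 8 members, both lower with SAG, against 14.2% of all genes in either direction and 8.21% in the lower direction.

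Tnr read 25.2, 31.3 and 40.6 CPM in the DMSO libraries (1226, 1429 and 1531 counts). With SAG it read 8.10, 4.80 and 3.42 CPM (282, 322 and 107 counts). Every SAG library therefore lay below every DMSO library, and the groups did not overlap. The log2 fold change was -2.55 (SE 0.87, 95% interval -4.47 to -0.64), a 5.95-fold lower mean, with an adjusted p of 0.594 by edgeR's quasi-likelihood test (unadjusted p = 0.0135). DESeq2's adjusted p was 0.0121. A two-sided exact permutation test gave p = 0.1, the smallest that 3 against 3 libraries allow.

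Adamts4 read 14.4, 4.38 and 17.6 CPM with DMSO (702, 200 and 662 counts) and 0 in each SAG library. Taking a floor of 3 counts per library, its mean was at least 160-fold lower with SAG. The floor covers counting error only and does not bound a level lost to zeros of another kind. PBS replicate 4 also had 0 counts, although Adamts4 had at least 184 wherever it was counted. Of genes at a mean of 5 to 10 CPM, 33.8%, 17.5% and 29.2% had no count in SAG replicates 1, 2 and 3. In the DMSO replicates 16%, 8.21% and 26.7% had none. The adjusted p was 0.451 by edgeR's quasi-likelihood test and 3.69e-05 by DESeq2's. Of 4270 genes within 2-fold of its DMSO level, 90 (2.11%) were likewise at 0 in every SAG library. Of the 367 genes DESeq2 called, 117 had one group at or under 3 counts in every library.

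The abundant members were measured tightly enough to bound their change. With SAG against DMSO, Ncan differed by 0.16 on the log2 scale (95% interval -0.21 to 0.54), from 377 ± 24.5 to 416 ± 24.3 CPM (SD, n = 3 each). Bcan differed by 0.010 (95% interval -0.35 to 0.37), at 1233 ± 210 CPM with DMSO and 1222 ± 137 CPM with SAG. The log2 difference of Ptprz1 was 0.087 (95% interval -0.24 to 0.42), and that of Cspg5 was -0.12 (-0.63 to 0.39). None of these 4 intervals reached a doubling or a halving. Those of Vcan (-0.43, -2.50 to 1.64) and Tnc (-0.69, -3.82 to 2.45) were wide and took in both. Tnc read 16.8, 14.3 and 10.3 CPM with DMSO and 0.804, 5.59 and 18.7 CPM with SAG. One SAG library was thus nearly without Tnc and another held the highest level of the 6.

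The median log2 fold change of the 8 members was -0.27, against -0.020 for all genes tested. Summed oligodendrocyte precursor markers ran from 1848 to 2321 CPM with DMSO and from 3655 to 3806 CPM with SAG, but the list did not move as one. Means were higher with SAG for Olig1 (725 and 1742 CPM), Olig2 (1153 and 1840 CPM), Nkx2-2 (7.73 and 47.1 CPM) and Cspg4 (4.15 and 10.4 CPM). They were lower with SAG, as for Tnr and Adamts4, for Sox10 (94.2 and 42.9 CPM), Gpr17 (30.0 and 2.59 CPM), Lhfpl3 (32.8 and 16.9 CPM) and Pdgfra (26.1 and 21.0 CPM). The 8 oligodendrocyte markers summed to 378 to 500 CPM and 397 to 495 CPM, with 2 and 3 of them at 0 in every library of the group. Neuronal markers summed to 757 to 967 and 514 to 721 CPM, with 2 and 1 of 11 at 0, and Map2 averaged 738 and 549 CPM of them. Means were also lower with SAG for Tubb3 (58.8 and 20.4 CPM), Gad2 (32.5 and 4.47 CPM), Dcx (20.1 and 1.35 CPM) and Gad1 (12.6 and 1.41 CPM). Stmn2 (4.25 and 2.29 CPM) and Syt1 (2.37 and 2.16 CPM) were lower at low levels. Rbfox3 (19.9 and 22.0 CPM), Snap25 (3.19 and 3.64 CPM) and Nefl (0 and 0.174 CPM) were higher. Astrocyte markers summed to 4509 to 4756 and 3931 to 4499 CPM, and single markers went both ways. Lower with SAG were Gfap (174 and 40.4 CPM), Sox9 (1310 and 897 CPM) and Gja1 (119 and 59.7 CPM). Slc1a2 (501 and 463 CPM), Atp1b2 (289 and 277 CPM) and Aqp4 (54.4 and 47.6 CPM) were also lower. Aldh1l1 (162 and 278 CPM), Slc1a3 (1308 and 1424 CPM), Aldoc (571 and 625 CPM) and Hepacam (123 and 153 CPM) were higher. The 4 FGF readouts (Dusp6, Spry4, Etv4 and Etv5) summed to 116 to 162 and 169 to 289 CPM. The part of any of these in the lower Tnr and Adamts4 was not tested.

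**Figure D2:**
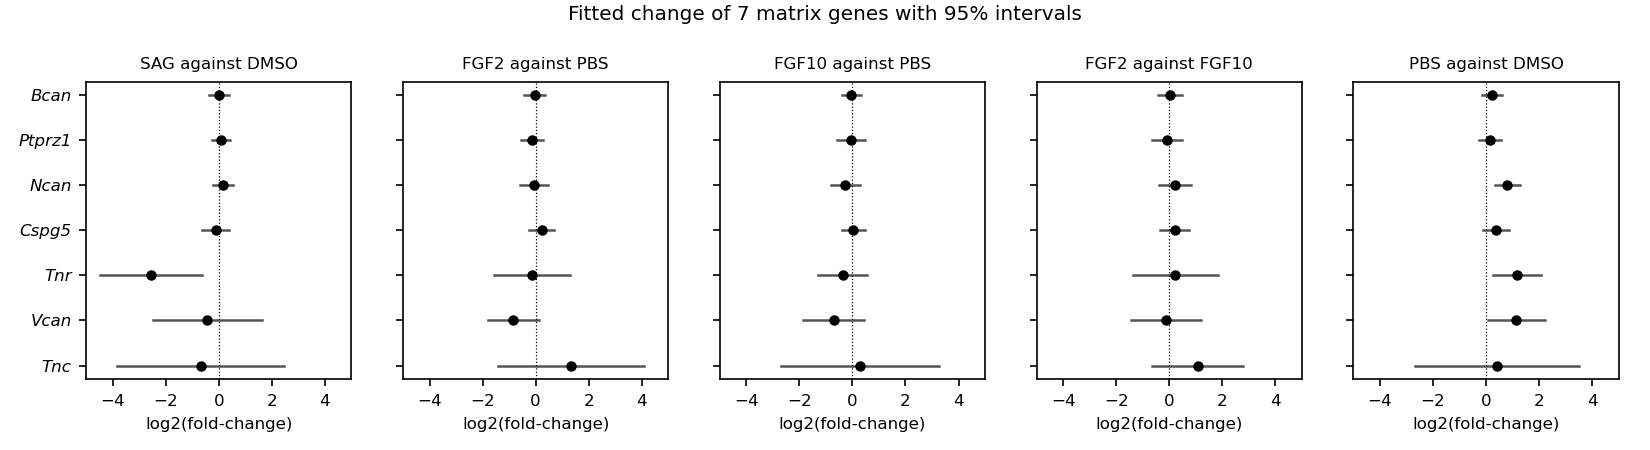
Log2 fold change of 7 members (rows; points are fitted values, lines 95% intervals) from edgeR's quasi-likelihood fit (x axes) in the 5 comparisons (panels), without Adamts4, which was at 0 in all libraries of 2 groups. The intervals of Bcan and Ptprz1 are narrow and span 0 in all comparisons, whereas Tnr with SAG reads -2.55 and lies below 0.

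Genes that build, bind or cut the same matrix were read from lists chosen by function, and 0 genes of any list were called with SAG by edgeR's quasi-likelihood test. Of 26 genes of chondroitin sulfate synthesis, 24 were tested, 15 with a fitted value above 0 and 9 below (median log2 fold change 0.15). Their ends were B3galt6, a linkage-region galactosyltransferase (2.90, SE 3.40), and Papss2, which makes the sulfate donor, at 0 in every SAG library against 3.13 ± 1.94 CPM with DMSO (SD, n = 3). Ugdh, which makes the glucuronic acid donor, read 57.8 ± 20.9 CPM with DMSO and 20.5 ± 9.32 CPM with SAG (SD, n = 3 each; log2 fold change -1.47, SE 0.54, adjusted p = 0.680 by edgeR). It is named, like Timp2, Timp3, Mmp15 and Adamts9 next, after its values were seen.

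Of 17 matrix proteases and inhibitors, 14 were tested, 6 above and 8 below 0 (median -0.28), from Mmp17, a membrane-anchored metalloproteinase (-4.13, SE 2.75), to Adamts8 (1.36, SE 3.28). Timp3, a matrix-bound inhibitor that also blocks aggrecanases, read 289 ± 5.96 CPM with DMSO and 473 ± 23.0 CPM with SAG (log2 fold change 0.73, SE 0.17, adjusted p = 0.301 by edgeR). Timp2, an inhibitor of matrix metalloproteinases, read 573 ± 37.8 and 367 ± 43.7 CPM (log2 fold change -0.62, SE 0.17, adjusted p = 0.447 by edgeR). Groups did not overlap for 5 of the 14, with Timp3 and Mmp15 higher and Timp2, Mmp17 and Adamts9 lower with SAG, where 14.2% of all genes did not overlap. Of 13 hyaluronan and link genes 6 were tested (median 0.27), from the hyaluronidase Hyal1 (-0.47) to Cemip2, also assigned to hyaluronan breakdown (1.13, SE 0.65). Of 20 other proteoglycans 13 were tested (median -0.015), from biglycan (Bgn, -5.47, SE 3.06) to Cspg4 (1.35, SE 2.20), or NG2, a precursor cell marker. Of 14 binding partners 9 were tested (median -0.20), from the tenascin receptor contactin (Cntn1, -1.47) to the integrin subunit Itgav (0.89). In these other lists, groups did not overlap for 3 of 24 chondroitin sulfate synthesis genes and 2 of 9 binding partners, all lower with SAG. The same held for 0 of 6 hyaluronan and link genes and, of 13 other proteoglycans, for 1 higher and 1 lower.

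**Figure D3:**
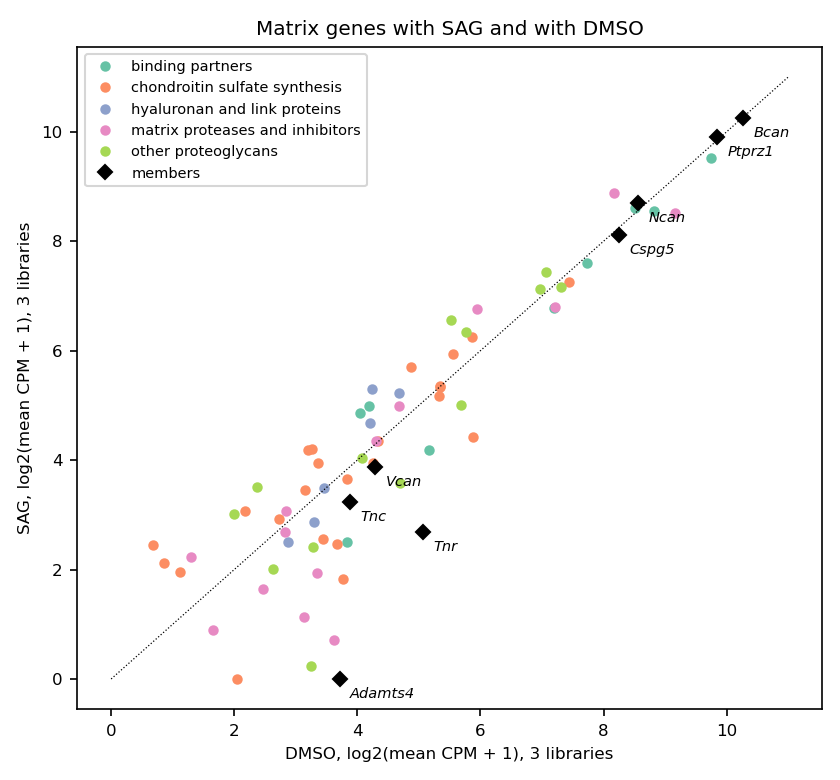
Mean level with SAG (y axis) against mean level with DMSO (x axis), both as log2(mean CPM + 1), for the members (black diamonds) and the genes of the 5 matrix lists (coloured points). Bcan, Ptprz1, Ncan and Cspg5 lie close to the dotted line of equal levels, Tnr and Adamts4 lie well below it, and genes of low level scatter to both sides.

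The FGF2 and FGF10 comparisons asked how each growth factor changed the cells, and they share the PBS libraries. No member was called by edgeR's quasi-likelihood test in either (0 of 8 tested in each, where 0% of 12744 and of 13309 genes were), nor between FGF2 and FGF10 (0 of 8, where 0% of 13493 genes were). At an unadjusted p under 0.05, edgeR's test counted 0, 1 and 1 members in these 3 comparisons, where it counted 223 genes (1.75%), 305 (2.29%) and 324 (2.4%), and both members were Adamts4. DESeq2's Wald test called 9 genes (0.0712%), 37 (0.283%) and 28 (0.212%), among them Adamts4 in both comparisons with FGF10 and no other member. Groups overlapped for all 8 members with FGF2 against PBS (2.45% of genes did not) and with FGF10 against PBS (4.79%). Between FGF2 and FGF10 only Adamts4 did not overlap, higher with FGF2 (4.9% of genes did not in either direction, 2.33% in the higher).

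Adamts4 read 8.16, 13.9, 13.4 and 0 CPM in the PBS libraries. With FGF2 it read 7.27, 13.9, 3.86 and 15.3 CPM, and with FGF10 it was at 0 in all 3. The FGF2 and PBS ranges overlapped, and FGF10 shared its 0 with PBS replicate 4. The floor of 3 counts used next covers counting error only, and does not bound a level lost to zeros like that of PBS replicate 4. Against the floor of 3 counts per library, Adamts4 was at least 104-fold lower with FGF10 than with PBS (adjusted p = 1.00 by edgeR's quasi-likelihood test, 0.00670 by DESeq2). It was at least 118-fold higher with FGF2 than with FGF10 (adjusted p = 1.00 by edgeR, 1.30e-05 by DESeq2). Of genes within 2-fold of its PBS level, 1.48% were at 0 in every FGF10 library, and of those near its FGF2 level, 0.701%.

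Versican was lower on average with both factors, within the spread. It read 33.8, 29.7, 43.2 and 55.0 CPM with PBS, 24.98, 22.7, 11.7 and 30.4 CPM with FGF2, and 31.9, 9.22 and 33.0 CPM with FGF10. Only 1 FGF2 library and 2 FGF10 libraries exceeded the lowest PBS library. The log2 fold change was -0.84 with FGF2 (SE 0.44, 95% interval -1.79 to 0.11, unadjusted p = 0.0784 by edgeR) and -0.71 with FGF10 (SE 0.53, -1.85 to 0.43). Vcan was lower with FGF2 than with PBS in each of the 4 same-numbered pairs, and with the replicate block its log2 fold change was -0.88 (SE 0.49, unadjusted p = 0.0977, adjusted p = 1 by edgeR). The pairs were read from the data, since the labels do not name them.

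The other proteoglycans had narrow intervals around the PBS level. The log2 difference of Ncan was -0.057 with FGF2 (95% interval -0.60 to 0.48) and -0.28 with FGF10 (-0.82 to 0.27). Bcan differed by -0.033 with FGF2 (95% interval -0.44 to 0.37) and by -0.042 with FGF10 (-0.41 to 0.33). For Ptprz1 the values were -0.13 (-0.55 to 0.29) and -0.048 (-0.58 to 0.48), and for Cspg5 0.23 (-0.23 to 0.70) and 0.031 (-0.41 to 0.47). All 8 intervals lay within a doubling or a halving.

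The tenascins spread widely within each group. Tnc read 0, 3.66, 51.0 and 17.5 CPM with PBS, 10.9, 10.8, 110 and 49.7 CPM with FGF2, and 11.6, 14.6 and 39.0 CPM with FGF10. Its log2 difference with FGF2 was 1.34 (SE 1.27), which ranged from 0.40 to 2.69 as libraries were left out in turn. Tnc was higher with FGF2 than with PBS in each of the 4 same-numbered pairs, and with the replicate block the difference was 2.35 (SE 1.063, unadjusted p = 0.0489, adjusted p = 1 by edgeR). The labels do not name these pairs. With the replicate set (1 and 2, or 3 and 4) as a term in place of the block, the difference was 1.90 (SE 0.94, unadjusted p = 0.0636 by edgeR). In each group the libraries numbered 3 or 4 held the higher Tnc values. Tnr read 53.6, 129, 47.8 and 59.2 CPM with PBS, 83.2, 122, 3.96 and 51.6 CPM with FGF2, and 43.1, 88.1 and 35.8 CPM with FGF10. Its log2 difference was -0.14 with FGF2 (SE 0.67) and -0.37 with FGF10 (SE 0.43).

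Some of the 10 genes also followed the replicate numbers of the FGF experiment, a division that the labels do not name as a batch and that was seen in these data, so that it is described without a test. Over the 3 groups, Ncan read 424 to 608 CPM in the 6 libraries numbered 1 or 2 and 632 to 884 CPM in the 5 numbered 3 or 4. Ptprz1 read 675 to 866 and 1001 to 1350 CPM, and Tnc 0 to 14.6 and 17.5 to 110 CPM. These 3 of the 9 members with a count did not overlap between the sets, all higher in replicates 3 and 4, against 4.81% of all genes in either direction and 2.49% in that direction. Tnr leaned the other way (43.1 to 129 and 3.96 to 59.2 CPM) with overlap, and Bcan, Cspg5, Vcan and Adamts4 overlapped.

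Marker sums moved with the same division. Proliferation markers summed to 209 to 385 CPM in replicates 1 and 2 and 959 to 1545 CPM in replicates 3 and 4, and oligodendrocyte precursor markers to 1539 to 1927 and 3130 to 4367 CPM. Olig1 and Olig2 carried most of the precursor sum, with means of 1093 and 1287 CPM with PBS. Sox10 averaged 95.3 CPM there and each other precursor marker at most 36.0 CPM, so the sum says little about them. Astrocyte markers summed to 4952 to 5838 and 3641 to 4159 CPM, and endothelial and mural markers to 154 to 350 and 41.0 to 90.6 CPM. Acta2 carried most of the latter sum, with means of 164, 112 and 207 CPM with PBS, FGF2 and FGF10, followed by Pdgfrb (27.9, 7.74 and 22.1 CPM). Each of the other genes of that list averaged at most 2.35 CPM in these groups, and the endothelial genes Cldn5 and Cdh5 were at 0. Oligodendrocyte markers summed to 611 to 724 and 240 to 612 CPM. The 4 FGF readouts summed to 61.9 to 110 and 195 to 493 CPM, and by group to 61.9 to 228 CPM with PBS, 68.3 to 493 CPM with FGF2 and 71.1 to 243 CPM with FGF10. The part of any of these sums in the Ncan, Ptprz1 and Tnc levels was not tested. FGF10 has 1 library of the later numbers, against 2 each for PBS and FGF2.

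**Figure D4:**
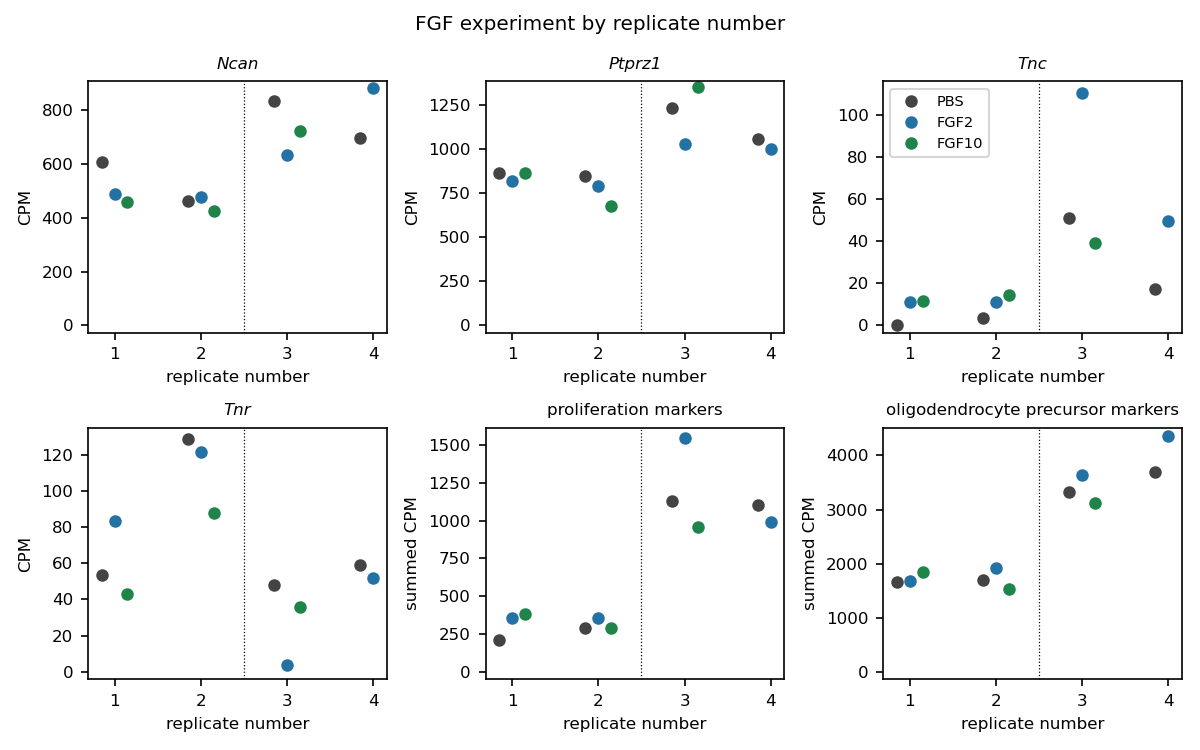
Levels in the 11 libraries of the FGF experiment by replicate number (x axes, coloured by group), for Ncan, Ptprz1, Tnc and Tnr in CPM and for summed proliferation and oligodendrocyte precursor markers in CPM (y axes). Right of the dotted line, in replicates 3 and 4, Ncan, Ptprz1, Tnc and both marker sums are higher than in any library left of it, and Tnr leans lower. Olig1 and Olig2 make up most of the precursor sum.

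The matrix lists held 0 called genes in these comparisons by edgeR's test. Chondroitin sulfate synthesis genes had a median log2 fold change of 0.44 with FGF2 (16 of 23 tested above 0) and 0.44 with FGF10 (17 of 24), against 0.0011 and -0.0016 for all genes. With FGF2 they ran from Chst11, a chondroitin 4-O-sulfotransferase (-1.78, SE 0.92), to Ust, a uronyl 2-O-sulfotransferase (3.44, SE 2.84). Medians of the other lists lay between 0.010 and 0.46 with FGF2 and between 0.011 and 0.16 with FGF10.

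PBS and DMSO libraries differ in solvent, in the days in culture and in experiment, which cannot be told apart. No member was called by edgeR's quasi-likelihood test (0 of 8, where 0% of 13271 genes were). At an unadjusted p under 0.05 there were 3 of 8 members (Ncan, Vcan and Tnr) by edgeR's test, where 580 genes (4.37%) were. DESeq2's Wald test called Ncan (adjusted p = 0.0134) where it called 0.967% of genes. Ncan, Vcan and Tnr were higher in every PBS library than in every DMSO library, 3 of 8 members against 6.44% of all genes in either direction and 3.04% in the higher direction.

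Ncan read 362, 365 and 406 CPM with DMSO and 608, 463, 833 and 696 CPM with PBS, a log2 difference of 0.80 (SE 0.22, edgeR's adjusted p = 0.978). Vcan read 21.0, 21.1 and 13.7 CPM with DMSO, below all 4 PBS values above (1.13, SE 0.50). The log2 difference of Tnr was 1.17 (SE 0.42). Bcan (0.22), Cspg5 (0.37), Ptprz1 (0.14) and Tnc (0.40) overlapped between these groups.

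Across the 17 libraries, correlations of log2 levels between the 6 members counted in every library ran from -0.30 (Ptprz1 and Tnr) to 0.63 (Ncan and Cspg5), given as a description of libraries that share experiment, replicate set and depth. Of 7617 genes counted at 10 or more in every library, the most similar to Ncan were Anp32e (Pearson r = 0.91), Ddit4 (0.91) and Tmsb4x (0.90). Those most similar to Ptprz1 were Nusap1 (0.84), Ube2e3 (0.83) and Ckap2 (0.82), of which Nusap1 and Ckap2 act in mitosis. Tnr was most similar to Pcgf2 (0.88), Cadm4 (0.87) and Bcas1 (0.87), the last a marker of maturing oligodendrocytes. Bcan had no closer match than Tpd52 (0.75), Vcan than Sf3b6 (0.75) and Cspg5 than Cox6c (0.80).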

How the data were processed

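RNA from 17 cultures of immunopanned mouse astrocytes was sequenced from the 3′ end (QuantSeq FWD). The authors deposited raw counts per gene in 1 table, made by aligning with STAR to GRCm38; the annotation, the strand setting and the use of molecular identifiers are not given in the sources used here. The table held 56805 rows, of which 114 spike-in rows (at most 86 counts in a library) were left out of totals and tests. Column names with Shh were matched to the samples titled SAG. The labels give 4 FGF2 libraries and the methods 3, and all 4 were used. Groups and replicate numbers came from the labels. Replicates of a group differed beyond counting noise.

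Each pair of groups was compared with edgeR 4.0.16 (filterByExpr with a minimum count of 10, TMM scaling, quasi-likelihood test, 2 groups per fit, R 4.3.3), with Benjamini-Hochberg adjustment over all genes tested and a threshold of 0.05. Members were not adjusted separately. Standard errors and 95% intervals were derived from the F statistic. DESeq2 1.42.0, the tool named in the study's methods, was run as an alternative, along with other filters, scaling, 1 fit of all libraries, the replicate block, replicate sets and each library left out. On simulated counts with a dispersion of 0.05, edgeR's test recovered 200 of 200 changes of 2 on the log2 scale in each comparison. With the dispersion of the libraries it recovered 30 of 200 for SAG against DMSO and 39 to 60 of 200 in the other comparisons. A member not called by edgeR is therefore not shown to be unchanged. The floor of 3 counts covers counting error only.

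Named genes were the members, the highest and lowest fold change of each matrix list, pathway readouts, cell markers that moved with a member, and the 3 genes most correlated with each member counted at 10 or more in every library; Timp2, Timp3, Mmp15, Adamts9 and Ugdh were added after their values were seen. The members and lists were chosen with earlier results of these data known. In the FGF experiment, deviations from group means of same-numbered libraries correlated at 0.13 to 0.16 between FGF2 and PBS (4 pairs) and at 0.10 to 0.18 between FGF2 and FGF10 (3 pairs). Each was above 0.1, so these numbers were read as pairs. The best partner was not always the same number. FGF2 replicate 1 correlated best with PBS replicate 2, and FGF2 replicate 2 with FGF10 replicate 1. Pairs by number therefore cannot be told apart from the division into replicates 1 and 2 against 3 and 4. Between FGF10 and PBS they ran from 0.066 to 0.16, and for SAG and DMSO from -0.0039 to 0.015. The pairing comes from the data, since the labels name no shared batch.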

Additional observations from a re-analysis of the deposited data

Results flagged for a closer look

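A sample far from the rest of its group was looked for in 18 combinations of a member and a group of 4 libraries, where chance alone flags about 1 in 20. Tnr stood apart in PBS replicate 2, at 129 CPM against 59.2 CPM in the next library. Hapln1 was counted only in that same replicate among the PBS libraries, at 6.24 CPM, and only in replicate 1 among the FGF2 libraries, at 4.16 CPM. A gene counted in only 1 library of a group is always flagged by this rule, so the chance rate does not apply to Hapln1.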

How the results depend on the processing

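Of 573 recomputed member values, 521 kept their direction and their side of the threshold, 5 passed it only under another setting, and 47 changed sign, 13 of them without a library being left out. The 5 that passed did so under DESeq2, which called 2 members and 367 genes with SAG against DMSO (edgeR: 0 and 8), 9 genes and 0 members with FGF2 against PBS, 1 member and 37 genes with FGF10 against PBS, 1 member and 28 genes with FGF2 against FGF10, and 1 member and 126 genes with PBS against DMSO. For SAG, edgeR called 4 genes at the study's threshold, 76 with no filter, 42 with a mean of at least 10 counts, 4 with all 17 libraries in 1 fit, and 1 to 7 as libraries were left out (1 without DMSO replicate 1, 5 without DMSO replicate 2 or 3, 2 without SAG replicate 2 or 3). For FGF2 against FGF10 it called 2 with no filter, and for PBS against DMSO 36 with no filter, 4 with a mean of at least 10 counts and 1 with all libraries in 1 fit. The cause of these differences was not tested.

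The sign changes were of values near 0 or with a wide error. With all 17 libraries in 1 fit, the log2 fold change of Bcan with SAG was -0.012. With replicates 1 and 2 alone, FGF2 against PBS gave Bcan 0.0022, Tnr 0.18 and Adamts4 -0.050, and FGF2 against FGF10 gave Vcan 0.22, Cspg5 -0.037, Ptprz1 0.073 and Tnc -0.27. With the replicate set as a term, FGF10 against PBS gave Ptprz1 0.015. The replicate block gave Bcan -0.037 and Tnr -0.41 for FGF2 against FGF10 and Tnc -2.17 and Adamts4 0.13 for PBS against DMSO, where numbers are not pairs. It gave Tnr -2.61 and 12 genes called for SAG against DMSO, and it changed no call of a member in any comparison.

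As libraries were left out in turn, log2 fold changes with SAG ranged from -0.099 to 0.15 for Bcan and from -0.32 to 0.11 for Cspg5. With FGF2 against PBS they ranged from -0.28 to 0.085 for Ncan, -0.11 to 0.057 for Bcan, -0.62 to 0.29 for Tnr and -0.22 to 0.50 for Adamts4. With FGF10 against PBS they ranged from -0.12 to 0.13 for Cspg5, -0.38 to 0.14 for Ptprz1, -0.46 to 1.62 for Tnc and -0.88 to 0.055 for Tnr. With FGF2 against FGF10 they ranged from -0.061 to 0.11 for Bcan, -0.53 to 0.14 for Vcan, -0.28 to 0.25 for Ptprz1 and -0.26 to 0.73 for Tnr, and with PBS against DMSO from -0.95 to 0.82 for Tnc. Tnr with SAG stayed between -2.95 and -2.31, with edgeR's adjusted p at 0.613 or above.

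Taking each count as a separate transcript, counting error was small for Bcan, Ptprz1, Ncan and Cspg5, which had at least 5211 counts in each library. Adamts4, Hapln1 and Tnc include counts of 0 at levels where many genes have them.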
